A study of Mus musculus with 288 samples.

Results

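The transcriptomes of the liver and the kidney were compared in mice kept in normoxia, with every liver library set against every kidney library. The comparison used 48 of the 288 libraries of the series, 24 from each organ, and 9831 of 35904 genes, those with a mean of at least 5 TPM (transcript counts corrected for length and scaled to a common library total) in either organ. Of these, 6616 genes reached that level in both organs, 652 in the liver only and 2563 in the kidney only, and a gene kept through a single organ was higher there by its choice. All mice were male wild type C57BL/6J, 8 weeks old, and spent 7 days in normoxia (room air), the control arm of a study of intermittent hypoxia (IH). They were then kept for 2 days in constant normoxic darkness, and organs were taken at 8 time points 3 hours apart on the second of these days, with 3 mice per time point. Each library came from 1 organ of 1 mouse, and whether the libraries of both organs that share a time point and a replicate number came from the same mouse is not stated. The genes just inside the threshold were Abraxas1 (3.79 TPM in the liver, 5.001 TPM in the kidney) and Gtf2a1 (3.69 and 5.001 TPM), and those just outside were Fam161a (1.36 and 4.999 TPM) and Med13 (2.66 and 4.99 TPM).

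The liver and the kidney are both metabolic epithelial organs. Hepatocytes secrete most plasma proteins, make bile acids, turn ammonia into urea and carry much of the drug metabolism of the body. The kidney filters plasma in the glomerulus and recovers solutes along the nephron, from the proximal tubule through the thick ascending limb and the distal convoluted tubule to the collecting duct, and it shares with the liver the ability to release glucose into the blood. In whole tissue, a lower level can come from fewer cells of a type or from less RNA per cell, and these cannot be told apart.

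Several libraries stood apart and are given before the results that they touch. In 5 of 24 liver libraries (replicate 3 at 7:30, 13:30, 16:30, 19:30 and 22:30), Kap, a proximal tubule transcript, lay between 90.4 and 103 TPM, against 0.387 to 8.97 TPM in the other 19 liver libraries. Slc34a1 and Umod moved with it, and in these 5 libraries Kap stood at 0.195% to 0.222%, Slc34a1 at 0.223% to 0.256% and Umod at 0.184% to 0.227% of their mean level in the kidney. Transcripts of the adrenal gland rose above the usual trace in 6 kidney libraries, in which Cyp11a1, a steroidogenic enzyme, exceeded 1 TPM, and in 3 of them it exceeded 10 TPM. Gm19220, which GENCODE lists as a processed pseudogene, exceeded 100000 TPM in 4 kidney libraries. Within an organ, libraries correlated with each other at a median Pearson's r of 0.979 in the liver and 0.986 in the kidney (log2 values, 276 pairs of libraries each), and between organs at 0.458 (576 pairs). These values describe libraries that share the same set of genes.

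**Figure D1:**
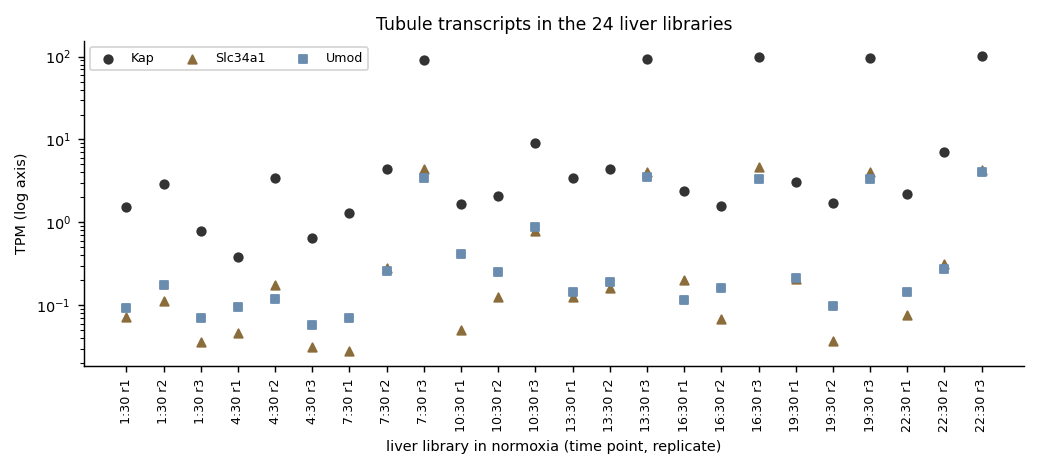
TPM (log axis) of the tubule transcripts Kap, Slc34a1 and Umod in each of the 24 liver libraries in normoxia, ordered by time point and replicate. All 3 transcripts are highest in the same 5 libraries, where Kap lies between 90.4 and 103 TPM.

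TPM is a share of a whole, and the most abundant genes took unequal shares in both organs. The 100 highest genes of a library held 58.8% ± 2.05 of all TPM in the liver and 48.9% ± 5.37 in the kidney (SD, n = 24 each), and the 13 mitochondrially encoded subunits held 10.9% ± 1.36 and 18.9% ± 3.07. Genes at or above 1 TPM numbered 11140 ± 301 in the liver and 12837 ± 325 in the kidney. Each of these differences had the smallest adjusted p that 100000 permutations can give (1e-05, 2-sided permutation test, Benjamini-Hochberg over 4 measures). The 10 highest genes held 23.9% ± 1.47 in the liver and 27.6% ± 7.23 in the kidney (adjusted p = 0.00569 by the same permutation test), but without the 4 kidney libraries rich in Gm19220 the kidney mean was 24.8% and the adjusted p of the permutation test 0.101. Each library was therefore divided by its median ratio to the mean library (geometric mean per gene), which put the median difference over all tested genes at -0.01 on the log2 scale. With TPM as deposited that median was -0.77, and with sums equalised after leaving out the 166 genes among the 100 highest of either organ it was -0.38. Differences below are of scaled values, as liver minus kidney on the log2(TPM + 0.5) scale, which understates differences of low genes. Levels are TPM as deposited.

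A gene was called different at an adjusted p of at most 0.05 in limma and a difference of at least 1.5-fold. Of 9831 genes, 5137 (52.3%) were called, 2451 (24.9%) higher in the liver and 2686 (27.3%) higher in the kidney. With TPM as deposited 7095 were called, 1232 higher in the liver and 5863 in the kidney, so the share of calls that favoured the liver fell from 47.7% to 17.4%. A set of 3918 genes was called in the same direction on both scales, and 436 called genes had the other sign, without a call there, with TPM as deposited. At least 8-fold differences were found for 596 genes (6.06%) higher in the liver and 665 (6.76%) higher in the kidney, and at least 64-fold differences for 236 and 113 genes. The TPM ranges of the 24 libraries of each organ did not overlap for 4157 genes (42.3%). In the other direction, the 95% interval of the difference lay within 1.5-fold for 3899 genes (39.7%).

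The liver-high end of the comparison was held by secreted plasma proteins. Alb, the albumin gene (chr5:90460897-90476602, + strand, GRCm38), ranged from 23206 to 56752 TPM in the liver with a median of 30580 TPM, and from 9.58 to 33.9 TPM in the kidney with a median of 13.6 TPM. No kidney library came near any liver library, and the difference was 11.76 ± 0.0956 (SE; limma adjusted p = 7.7e-62). Next in size among genes of at least 100 TPM were Serpina1e (11.66), Serpina3k (11.64), Ahsg (11.61), Apoa1 (11.50), Mup22 (11.48), Cyp3a11 (11.46), Mup3 (11.38), Mup19 (11.36) and Mup7 (11.35). Serpina1, Mup and Cyp2c genes belong to families of near-identical copies, between which reads may have been split, so single members are uncertain. The 22 Mup genes, which encode major urinary proteins, together held 15.2% ± 3.16 of liver TPM and 0.0103% of kidney TPM. By level, the liver was led by Mup22 (39848 TPM), Mup7 (33055 TPM), Alb (31277 TPM), Apoe (30472 TPM) and Apoa2 (21187 TPM).

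All 24 listed plasma proteins passed the filter and all 24 were called higher in the liver, on the scaled values and with TPM as deposited, and in none did the TPM ranges of the organs overlap. Among all tested genes, 24.9% were called higher in the liver and the ranges of 42.3% did not overlap. Plasma proteins with a kidney mean below 5 TPM, among them Ahsg and Vtn, passed the filter through the liver alone. They were higher there by that choice. The median difference of all 24 was 9.92, against -0.01 over all genes tested. The smallest difference was that of Apob, the scaffold of very low density lipoprotein, with 472 to 899 TPM in the liver (median 713) and 14.8 to 37.9 TPM in the kidney (median 24.0), a difference of 5.52 ± 0.101. Ttr, the thyroxine carrier transthyretin, followed at 6.77 ± 0.0880, with a kidney mean of 99.8 TPM, the highest kidney level of the list.

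At the kidney-high end stood tubule genes. Kap (chr6:133849851-133853762, - strand), an androgen-regulated protein of the proximal tubule, ranged from 28298 to 62858 TPM in the kidney with a median of 45901 TPM, and from 0.387 to 103 TPM in the liver with a median of 2.97 TPM. Its difference was -12.21 ± 0.436, and -13.25 without the 5 liver libraries that carried tubule transcripts. Without those libraries the next largest differences also widened, for Fxyd2 from -10.79 to -11.48, for Klk1 from -10.40 to -11.05 and for Slc34a1 from -10.32 to -10.96, while that of Alb was 11.78. The remaining genes of the 10 largest were Gpx3 (-10.27), Umod (-10.26), Cltrn (-10.14), Miox (-10.13), Slc22a12 (-9.71) and Akr1c21 (-9.52). The highest levels in the kidney were those of Gm19220, Kap (46286 TPM), mt-Co2 (29381 TPM), mt-Co1 (26464 TPM) and mt-Co3 (25928 TPM). Gm19220 itself ranged from 2547 to 362261 TPM in the kidney and from 1463 to 51294 TPM in the liver, and its difference of -1.29 ± 0.414 was not called (-0.74) without the 4 kidney libraries rich in it.

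The promoters of leading genes of both organs are shown to set their sequence beside their levels, with the short motif GTTAAT searched on both strands. GTTAAT or its reverse complement ATTAAC was found in the 250 bases before the start of 2023 of 27025 genes (7.49%, RefSeq, GRCm38.p6). Among listed genes with a window, it was found in 5 of 17 plasma proteins, 4 of 9 proximal tubule markers, 2 of 6 thick ascending limb markers and 3 of 19 cytochrome P450 genes. Lists beyond these held it too, with 2 of 6 exocrine pancreas markers, 5 of 24 transcription factors, 3 of 20 genes of glucose metabolism, 2 of 11 bile acid genes and 2 of 23 hormone and vitamin genes. It was found in 0 of 10 genes of the urea cycle list, 0 of 6 pericentral markers, 0 of 5 markers each of the distal convoluted tubule and of principal cells, and 0 of 15 clock genes. The 6 windows below were picked because they hold it, 3 from liver-high and 3 from kidney-high genes, with the letters in capitals. They end at the base before the RefSeq start and span 160 bases, or 250 for Umod. GENCODE places some starts elsewhere. The Slc34a1 window lies wholly inside the gene as GENCODE places it (chr13:55398187-55415592), and those of Vtn, Miox and Umod overlap their genes in part.
Alb (chr5:90460710-90460869, + strand): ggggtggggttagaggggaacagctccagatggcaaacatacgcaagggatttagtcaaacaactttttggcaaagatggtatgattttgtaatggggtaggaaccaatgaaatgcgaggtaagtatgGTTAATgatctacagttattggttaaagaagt
Fgb (chr3:83049864-83050023, - strand): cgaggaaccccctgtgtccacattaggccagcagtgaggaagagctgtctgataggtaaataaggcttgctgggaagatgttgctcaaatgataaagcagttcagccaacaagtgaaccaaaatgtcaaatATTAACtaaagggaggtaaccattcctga
Vtn (chr11:78498960-78499119, + strand): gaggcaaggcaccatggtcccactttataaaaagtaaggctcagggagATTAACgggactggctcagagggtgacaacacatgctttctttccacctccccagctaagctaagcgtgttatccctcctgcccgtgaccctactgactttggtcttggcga
Slc34a1 (chr13:55399488-55399647, + strand): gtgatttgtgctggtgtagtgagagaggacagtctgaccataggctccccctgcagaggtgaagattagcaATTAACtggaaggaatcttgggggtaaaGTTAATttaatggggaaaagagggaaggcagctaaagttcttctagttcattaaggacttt
Miox (chr15:89334313-89334472, + strand): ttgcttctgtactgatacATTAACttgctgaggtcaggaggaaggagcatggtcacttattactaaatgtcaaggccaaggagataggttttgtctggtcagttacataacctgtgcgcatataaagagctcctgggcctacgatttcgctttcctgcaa
Umod (chr7:119479263-119479512, - strand): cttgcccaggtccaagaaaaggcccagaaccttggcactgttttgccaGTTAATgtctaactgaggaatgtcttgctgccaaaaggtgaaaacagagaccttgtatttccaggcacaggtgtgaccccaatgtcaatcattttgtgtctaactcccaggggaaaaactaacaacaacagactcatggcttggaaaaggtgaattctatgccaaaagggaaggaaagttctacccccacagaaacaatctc
Counted from the start, the letters began at -32 in Alb, -29 in Fgb, -112 in Vtn, -89 and -61 in Slc34a1, -142 in Miox and -202 in Umod. Such a match describes the sequence and shows no binding.

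Markers of the nephron were higher in the kidney from the glomerulus to the collecting duct. All listed markers that could be tested were called so, 6 of 6 for podocytes, 12 of 12 for the proximal tubule, 6 of 6 for the thick ascending limb, 5 of 6 listed for the distal convoluted tubule (Trpm6, at 2.54 TPM in the kidney, was not tested), 6 of 6 for principal cells and 7 of 7 for intercalated cells. Their ranges did not overlap between organs. Apart from Kap and Wnk1, these tested markers had a mean below 5 TPM in the liver. They passed the filter through the kidney alone and were higher there by that choice. Over all tested genes 27.3% were called higher in the kidney. Along the nephron, Podxl, the podocalyxin of the podocyte surface, had 19.7 to 49.0 TPM in the kidney (median 30.3) and a difference of -3.38 ± 0.0911. In the proximal tubule, the phosphate transporter Slc34a1 had 1172 to 2781 TPM (median 1615) and the glucose transporter Slc5a2 147 to 405 TPM (median 226), with a difference of -8.01 ± 0.115 for the latter.

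Further along, Umod, the uromodulin of the thick ascending limb, had 896 to 2221 TPM (median 1824) and its transporter Slc12a1, the target of loop diuretics, 198 to 351 TPM (median 265), a difference of -8.34 ± 0.104. Slc12a3, the thiazide-sensitive transporter of the distal convoluted tubule, differed by -7.64 ± 0.107, the water channel Aqp2 of principal cells by -8.06 ± 0.106, and the proton pump subunit Atp6v1b1 of intercalated cells by -6.10 ± 0.0412. Among the smallest differences were those of Synpo (-1.89) and Wnk1 (-2.12), the latter at up to 20.1 TPM in the liver.

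**Figure D2:**
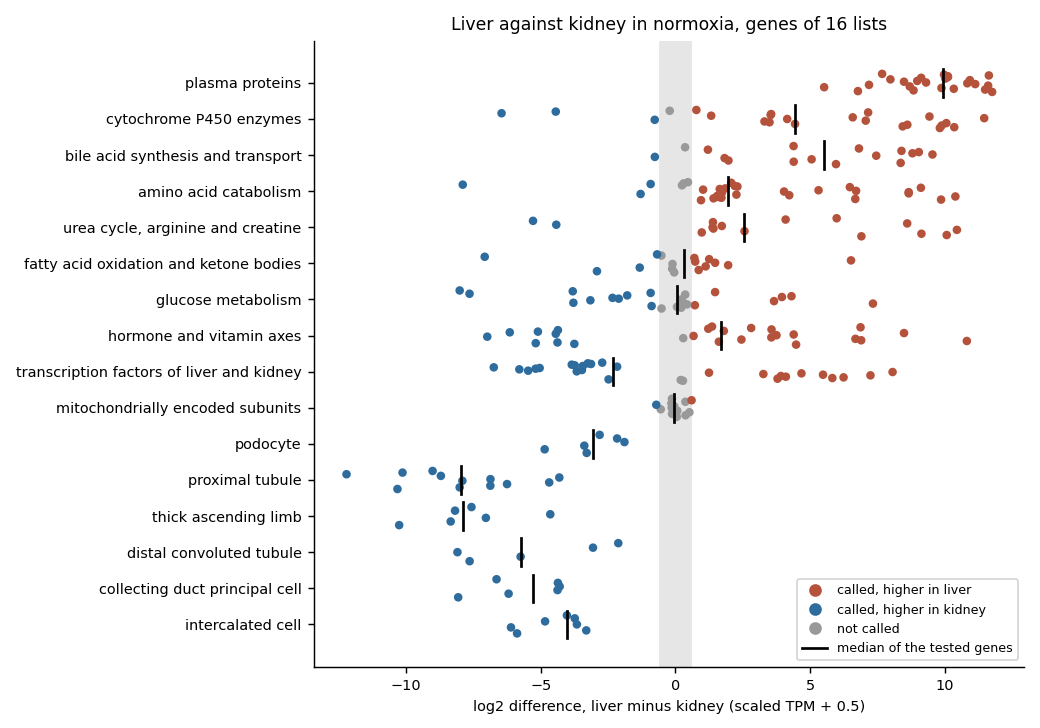
Difference between liver and kidney (log2, liver minus kidney, scaled values) of each tested gene of 16 lists, with the median of each list as a bar and the 1.5-fold band in grey. Plasma proteins lie wholly to the liver side and nephron markers wholly to the kidney side, whereas glucose metabolism and the mitochondrially encoded subunits centre near 0, and moved to medians of -0.73 and -0.84 with TPM as deposited.

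Xenobiotic and bile acid genes favoured the liver with exceptions. Of 24 listed cytochrome P450 genes, 23 were tested, 19 were called higher in the liver and 3 higher in the kidney, with a median of 4.44. Over all tested genes these shares were 24.9% and 27.3%. Genes that passed the filter through a single organ, such as Cyp2c29 (liver) and Cyp24a1 (kidney), were higher there by that choice. Cyp3a11 had 2432 to 4187 TPM in the liver (median 3204) and 0.695 to 3.32 TPM in the kidney (median 1.23), and Cyp2c29 differed by 10.35. Cyp2e1, which oxidises ethanol, was also present in the kidney (344 to 786 TPM, median 551) and differed by 3.31 ± 0.0793. The exceptions were Cyp4b1 with 909 to 2436 TPM in the kidney (median 1458) against 6.64 to 18.3 TPM in the liver (median 8.83), a difference of -6.45 ± 0.0837, Cyp24a1 (-4.44) and Cyp2j5 (-0.77). Cyp51, of cholesterol synthesis, lay within 1.5-fold (-0.21) on the scaled values and was called higher in the kidney with TPM as deposited. Por, the electron donor of microsomal P450 enzymes, was called higher in the liver (0.78), a direction lost with TPM as deposited (-0.01).

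Of 16 listed genes of bile acid synthesis and transport, all tested, 14 were called higher in the liver and 1 in the kidney (median 5.51). The shares over all tested genes were 24.9% and 27.3%. Genes such as Slc10a1 and Abcb11 passed the filter through the liver alone and were higher there by that choice. Cyp7a1, the rate-limiting enzyme of bile acid synthesis, ranged from 4.35 to 71.0 TPM in the liver (median 29.8) and from 0 to 0.191 TPM in the kidney, and Cyp8b1 from 23.0 to 281 TPM (median 154) and from 0.0283 to 0.159 TPM. The uptake carrier Slc10a1 differed by 8.80 ± 0.0495 and the canalicular export pump Abcb11 by 8.39. Amacr, a racemase also used in branched fatty acid oxidation, was the 1 gene higher in the kidney (-0.76 ± 0.0727), and Nr1h4, the bile acid receptor FXR, lay within 1.5-fold (0.36, and -0.43 with TPM as deposited). The multidrug exporter Abcc2 was shared, with overlapping ranges of 30.0 to 126 TPM in the liver and 27.7 to 78.7 TPM in the kidney, and its difference of 1.21 was not called (0.42) with TPM as deposited.

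Steps of nitrogen disposal mostly favoured the liver, to differing degrees. Of 16 listed genes of the urea cycle, arginine and creatine, 15 were tested, 13 were called higher in the liver and 2 in the kidney (median 2.56). Among all tested genes the shares were 24.9% and 27.3%. Genes that passed the filter through a single organ, such as Cps1 (liver) and Gatm (kidney), were higher there by that choice. The mitochondrial steps were found in the liver, with 293 to 916 TPM of Cps1 (median 546) against 0.0736 to 0.751 TPM in the kidney (median 0.178), a difference of 10.07 ± 0.0734, and with a difference of 9.13 ± 0.0346 for Otc. Ass1, which joins citrulline and aspartate, was shared, with 1633 to 3922 TPM in the liver (median 2340) and 1173 to 2679 TPM in the kidney (median 2074). The ranges of Ass1 overlapped, and its difference of 0.98 ± 0.0739 on the scaled values was not called with TPM as deposited (0.18).

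Asl, the next step, differed by 2.56 ± 0.0914. Arg1, which splits arginine into urea and ornithine, had 698 to 1543 TPM in the liver (median 1045) and 0.404 to 1.05 TPM in the kidney (median 0.654), a difference of 10.45 ± 0.0648. The kidney thus held transcripts of the steps that make arginine and little of Arg1. Its other arginase, Arg2, had a mean of 2.80 TPM there and was not tested. Creatine synthesis split between its enzymes. Gatm, of the first step, had 217 to 511 TPM in the kidney (median 338) and 2.56 to 7.53 TPM in the liver (median 4.81), a difference of -5.29 ± 0.0860. Gamt, of the second step, had 184 to 337 TPM in the liver (median 260) and 12.8 to 33.7 TPM in the kidney (median 26.3), a difference of 4.09 ± 0.0839. Gls2, a glutaminase, was higher in the liver (8.60).

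Amino acid catabolism favoured the liver, with 24 of 30 listed genes called higher there, 3 higher in the kidney and 3 not called (median 1.96). All tested genes gave shares of 24.9% higher in the liver and 27.3% in the kidney. Genes that passed the filter through a single organ, such as Tat (liver) and Dao (kidney), were higher there by that choice. Tdo2 (10.39), Tat (9.86) and Bhmt (9.11), which start the breakdown of tryptophan, tyrosine and betaine, were nearly absent from the kidney. Higher in the kidney were both oxidases of D-amino acids, Dao (183 to 332 TPM, median 268, against 0 to 0.850 TPM in the liver, a difference of -7.89 ± 0.106) and Ddo (-0.92), and Acmsd of the kynurenine pathway (-1.29). Pipox (0.24), Prodh (0.30) and Aldh4a1 (0.47) were not called and had the other sign with TPM as deposited (-0.55, -0.49 and -0.32).

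**Figure D3:**
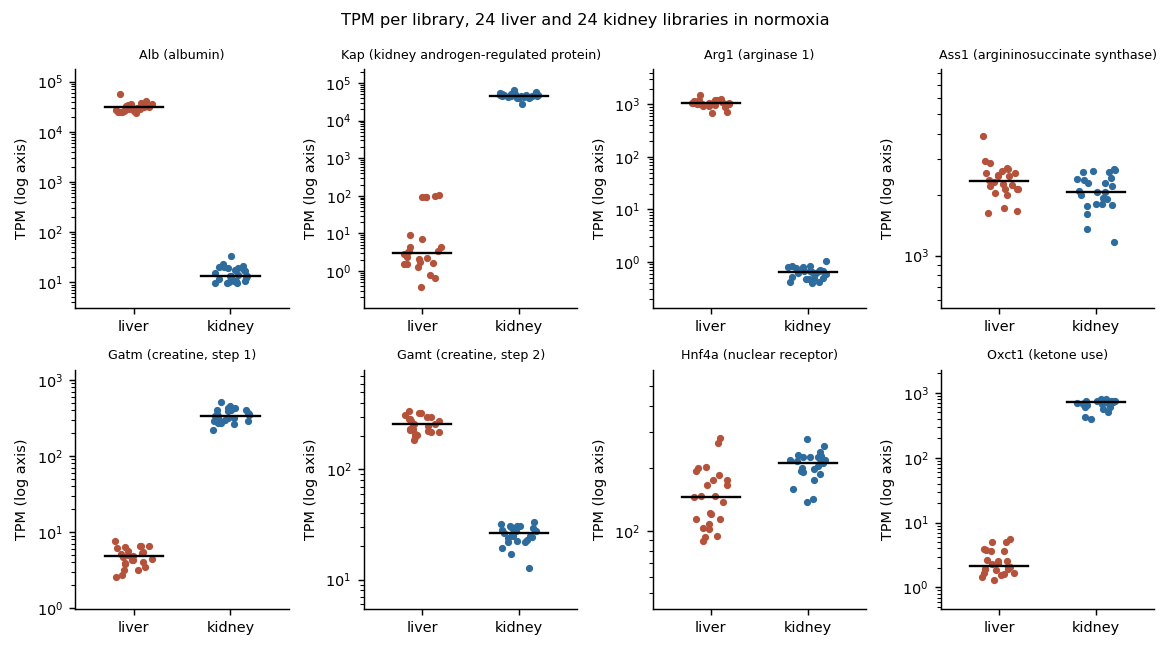
TPM (log axis) in each of 24 liver and 24 kidney libraries for 8 genes, with the median as a bar. The ranges of the organs overlap for Ass1 and Hnf4a alone, and the 5 liver libraries with Kap above 90 TPM stand apart from the other 19.

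Several enzymes that release glucose were well expressed in both organs, within a list whose genes were mostly called different. Of 24 listed genes of glucose metabolism, 23 were tested, 6 were called higher in the liver, 10 higher in the kidney and 7 were not called (median 0.06, and -0.73 with TPM as deposited). Of the 23, 6 lay within 1.5-fold, against 39.7% of all tested genes. Over all tested genes 24.9% were called higher in the liver and 27.3% higher in the kidney. Pck1, the first committed step of gluconeogenesis, had 145 to 1849 TPM in the liver (median 418) and 312 to 1271 TPM in the kidney (median 669). Its ranges overlapped, and its difference lay within 1.5-fold on the scaled values (0.06 ± 0.178) and was called higher in the kidney with TPM as deposited (-0.73). Pcx (0.43), Slc37a4 (0.22), Khk (0.27) and Ldha (0.36) also lay within 1.5-fold on the scaled values, and all 4 changed sign with TPM as deposited. Fbp1 was called higher in the liver (0.72) on the scaled values, a direction lost with TPM as deposited (-0.07), and G6pc, the last step, was not called (-0.52 ± 0.151) but was called higher in the kidney with TPM as deposited (-1.30).

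Some enzymes of glucose and lactate metabolism diverged. The hexokinase Hk1 had 23.0 to 43.6 TPM in the kidney (median 32.2) and 0.682 to 1.69 TPM in the liver (median 0.923), a difference of -3.79 ± 0.0583. Ldhb, a lactate dehydrogenase subunit, had 779 to 1496 TPM in the kidney (median 1250) and 1.90 to 7.73 TPM in the liver (median 2.69), a difference of -7.64 ± 0.106.

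Genes of fat oxidation were called in both directions. Of 16 listed genes of fatty acid oxidation and ketone bodies, all tested, 8 were called higher in the liver, 4 higher in the kidney and 4 were not called (median 0.33). The shares over all tested genes were 24.9% higher in the liver and 27.3% higher in the kidney, so the kidney count was near the general share. With TPM as deposited, 3 were called higher in the liver and 8 in the kidney (median -0.46). Oxct1, which activates acetoacetate for use as fuel, had 394 to 810 TPM in the kidney (median 715) and 1.297 to 5.64 TPM in the liver (median 2.17), a difference of -7.08 ± 0.0946. No library of either organ fell into the range of the other. In beta-oxidation, mitochondrial Acadm (-1.32), Cpt1b (-2.91) and the fatty acid carrier Slc27a2 (-0.68) were higher in the kidney. Cpt1a (-0.05), Acadl (-0.12) and Ehhadh (-0.11) lay within 1.5-fold on the scaled values and were called higher in the kidney with TPM as deposited (-0.83, -0.91 and -0.90). Hadhb (0.73) and Bdh1 (0.70) were called higher in the liver on the scaled values only (-0.06 and -0.09 with TPM as deposited).

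Transcription factors separated the organs with few exceptions. Of 30 listed factors, 28 were tested, 11 were called higher in the liver and 15 in the kidney (median -2.32). The shares over all tested genes were 24.9% and 27.3%. Factors that passed the filter through a single organ, such as Foxa2 (liver) and Hoxd8 (kidney), were higher there by that choice. Hnf4a, a nuclear receptor of hepatocytes and proximal tubule cells, had 89.1 to 281 TPM in the liver (median 146) and 137 to 278 TPM in the kidney (median 213). Its ranges overlapped between organs, and it lay within 1.5-fold on the scaled values (0.28), with the other sign in TPM as deposited (-0.51). On the liver side stood Creb3l3 (8.06), Foxa3 (6.24), Foxa2 (5.82) and Cebpa (4.10), and on the kidney side Hoxd8 (-6.74), Emx1 (-5.79) and Pax8 (-5.47), a regulator of nephron development. Hoxd8 ranged from 58.2 to 101 TPM in the kidney and from 0 to 0.196 TPM in the liver.

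Hormone and vitamin axes were spread over both organs by role. Of 28 listed genes, 26 were tested, 17 were called higher in the liver and 8 in the kidney (median 1.71). Among all tested genes the shares were 24.9% and 27.3%. Genes that passed the filter through a single organ, such as Hamp (liver) and Vdr (kidney), were higher there by that choice. In the renin-angiotensin axis, the precursor Agt had 235 to 437 TPM in the liver (median 286) against 11.6 to 34.7 TPM in the kidney (median 21.1), a difference of 4.48 ± 0.0771. Its enzymes were higher in the kidney, Ren1 by -3.75 ± 0.107 (median 23.8 TPM, at most 44.0 TPM) and Ace by -5.19. In the vitamin D axis, the 25-hydroxylases Cyp2r1 (3.75) and Cyp27a1 (4.39) and the plasma carrier Gc (8.49) were higher in the liver, and the receptor Vdr (-6.15) and the inactivating Cyp24a1 in the kidney. Cyp24a1 was widely spread, from 1.19 to 69.5 TPM in the kidney (median 12.9). The activating Cyp27b1 (2.02 TPM in the kidney) and Epo (0.0683 TPM) were below the level tested.

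Coreceptors of fibroblast growth factors split, with Klb higher in the liver (3.56) and Kl, klotho, higher in the kidney (-6.98). The parathyroid hormone receptor Pth1r (-5.10) and the vasopressin receptor Avpr2 (-4.36) were higher in the kidney, and the vasopressin receptor Avpr1a in the liver (1.80), with overlapping ranges. Hamp, which encodes the iron hormone hepcidin, had 898 to 5317 TPM in the liver (median 2806) and a difference of 10.82, and Igf1 differed by 6.90. Ghr, the growth hormone receptor, lay within 1.5-fold (0.29, and -0.50 with TPM as deposited). Fgfr4 was called higher in the liver (0.67) on the scaled values only (-0.09 with TPM as deposited).

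Paralogues offered a comparison that hardly depends on scaling where both genes lie well above 0.5 TPM, since a ratio is taken within a library. Ratios were of TPM + 0.5, so with a member near 0 their size depends on the added 0.5. This holds for Arg2 (mean 0.113 TPM), Hsd11b2 (0.0691 TPM), Atp6v1b1 (0.0322 TPM) and Acss1 (0.251 TPM) in the liver, and for Mat1a (0.342 TPM) in the kidney. The 16 pairs were chosen with the levels known and the first gene was set as the form favoured in the liver, so the ratios are given as a description and their shared direction follows from that choice. The ratio of the first to the second gene did not overlap between the organs' libraries in any of the 16 pairs. In 8 pairs the larger member itself changed with the organ. Arginases (Arg1 over Arg2) shifted from a log2 ratio of 10.74 ± 0.27 in the liver to -1.53 ± 0.37 in the kidney (SD, n = 24 each). Methionine adenosyltransferases (Mat1a over Mat2a) shifted from 4.10 ± 0.64 to -7.38 ± 0.35.

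Lactate dehydrogenases (Ldha over Ldhb) shifted from 6.78 ± 0.55 to -1.18 ± 0.08, and pyruvate kinases (Pklr over Pkm) from 3.56 ± 0.64 to -3.26 ± 0.29. In Gys2 over Gys1 the larger member also changed, with 5.79 ± 0.43 and -0.39 ± 0.19. The other 8 pairs kept the larger member, with a smaller margin in the kidney, among them Slc2a2 over Slc2a1, Hsd11b1 over Hsd11b2, Pygl over Pygb, Acss2 over Acss1, Slc25a13 over Slc25a12 and Atp6v1b2 over Atp6v1b1. The kidney means of Pygl over Pygb (0.24 ± 0.15) and Acss2 over Acss1 (0.14 ± 0.17) were close to 0, with libraries on both sides of it.

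**Figure D4:**
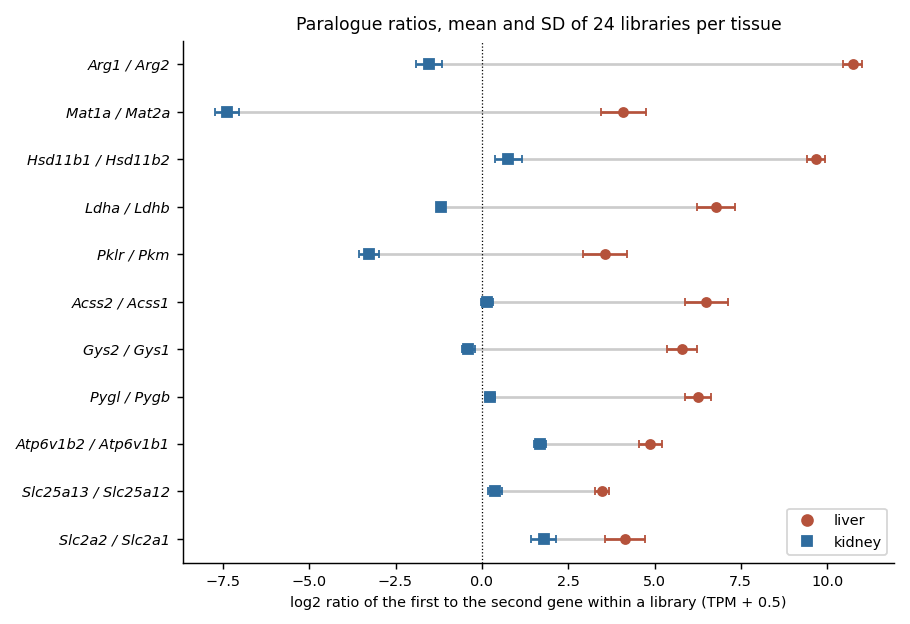
Log2 ratio of the first to the second gene of 11 of the 16 paralogue pairs within a library, as mean and SD of 24 liver and 24 kidney libraries. The liver value lies to the right of the kidney value in every pair shown, and the pairs are ordered by the size of that shift.

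Among the genes within 1.5-fold, the highest levels were those of mitochondrially encoded transcripts. Of 13 such subunits, 9 lay within 1.5-fold, 1 was called higher in the liver and 1 in the kidney, and their median was -0.04, but -0.84 with TPM as deposited, when 9 were called higher in the kidney and 0 in the liver. The share within 1.5-fold over all tested genes was 39.7% on the scaled values. mt-Co1 had 9809 to 20724 TPM in the liver (median 14942) and 15775 to 33115 TPM in the kidney (median 27343), a difference of -0.04 ± 0.0645 on the scaled values and of -0.84 as deposited. mt-Co3 (-0.15), mt-Cytb (-0.13), mt-Atp6 (0.37) and mt-Nd1 (0.05) were likewise within 1.5-fold on the scaled values, and at -0.94, -0.92, -0.42 and -0.74 as deposited. The pseudogene Gm29216 (0.20, and -0.60 as deposited) was the remaining gene of the highest 6. mt-Co2 (-0.71) and mt-Atp8 (0.60, but -0.19 as deposited) were called, the latter only just, and mt-Co2 was not called (-0.54) without the 5 liver libraries that carried tubule transcripts, nor without replicate 3 (-0.27).

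Whether the difference between organs varied over the day was tested with an interaction term of organ and time point. It did so for 334 genes (3.4%) at an adjusted p of at most 0.05 in limma, and 1198 genes had an unadjusted p at or under 0.05. The count fell to 49 without replicate 1, to 40 without replicate 2 and to 169 without the 3 kidney libraries with Cyp11a1 above 10 TPM. It was 107 without the 6 with Cyp11a1 above 1 TPM, which left a single kidney library at 10:30 and at 22:30, taken to vary like the others. In 91 of the 334 genes the sign of the difference was not the same at all time points. The 8 genes of lowest p at 20 TPM or more stayed at adjusted p-values of 0.00875 or less in limma whichever replicate number was left out.

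Elovl3, a fatty acid elongase, led them (limma adjusted p = 5.63e-11). Its liver mean ran from 19.4 TPM at 13:30 to 466 TPM at 22:30, while the kidney stayed at or below 0.153 TPM, so the difference ran from 5.41 to 10.11. Mreg, Tymp and Insig2, the last a brake on cholesterol synthesis, also moved more in the liver than in the kidney. Insig2 had 43.1 TPM at 13:30 and 168 TPM at 1:30 in the liver, and between 29.8 and 41.9 TPM in the kidney. Usp2, a deubiquitinase, had 1.32 TPM at 1:30 and 33.2 TPM at 10:30 in the liver and 30.4 and 55.6 TPM at those times in the kidney, so the difference ran from -3.54 to 0.02. For Clpx (-0.64 to 1.13), Crot (-0.49 to 1.32) and Casp6 (-0.53 to 0.95) the organ with the higher scaled value changed over the day.

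Of 17 clock genes, 13 were tested, 5 were called higher in the liver in the 24-hour mean (among them Cry1 at 1.41, Cry2 at 1.16, Nfil3 at 2.05 and Ciart at 1.29) and 0 in the kidney. With TPM as deposited, 2 were called higher in the liver and 5 in the kidney. All tested genes gave shares of 24.9% higher in the liver and 27.3% in the kidney on the scaled values. The highest mean fell at the same time point in both organs for 6 of the 17 genes and within 1 time point for 14. Dbp, a clock output factor, peaked at 7:30 in both, at 128 TPM in the liver and 110 TPM in the kidney, and 5 of the 13 tested genes varied between organs with time at an adjusted p of at most 0.05 in limma.

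**Figure D5:**
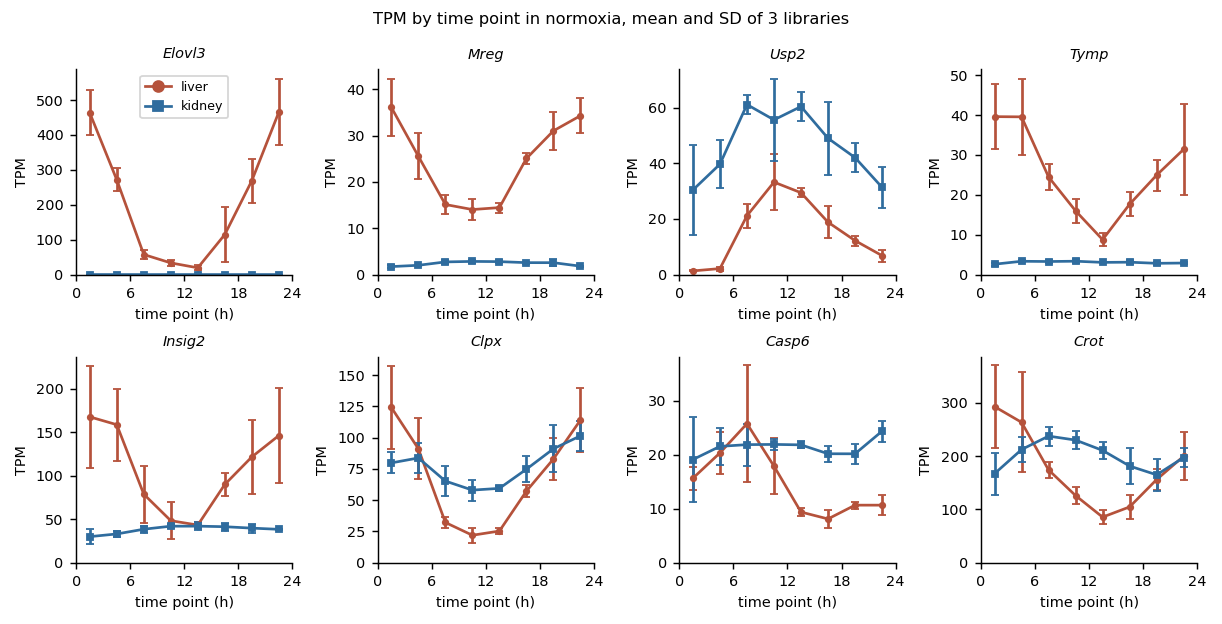
TPM by time point (hours) of the 8 genes whose difference between organs varied most clearly over the day, as mean and SD of 3 libraries per organ and time point. In fold terms the liver moves more than the kidney in each panel, and for Elovl3 the kidney stays at or below 0.153 TPM.

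The same comparison after 7 days of IH, in 24 liver and 24 kidney libraries, called 4790 of the 9831 genes (48.7%). Of these, 4315 were called in the same direction in normoxia, which is 84% of the normoxia calls and 90.1% of the IH calls, and 9 genes were called in opposite directions. The 2 comparisons share no library. The difference between organs varied with treatment for 799 genes (8.13%), 290 with a term above 0 and 509 below it, and the count ran from 461 to 1479 when a replicate number was left out. Kap, above 50 TPM in 23 of 24 liver libraries after IH and in 5 of 24 in normoxia, had a term of 4.12 ± 0.481, a value that moved with the tubule transcripts in liver libraries. Without the 5 normoxic liver libraries that carried them, the term of Kap was 5.15 and 1007 genes were called. The other genes of the 10 largest kidney-high differences were also called by treatment, with terms from 1.67 (Akr1c21) to 2.72 (Fxyd2). For Umod, the mean in the liver was 0.895 TPM in normoxia and 3.21 TPM after IH. The part of tubule transcripts in the remaining terms above 0 was not tested.

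Of the largest terms, Fasn, the fatty acid synthase, had means of 165 TPM in the liver and 38.2 TPM in the kidney in normoxia and of 58.4 and 67.6 TPM after IH, a term of -2.36 ± 0.315 (limma adjusted p = 5.55e-09). The others belonged to pseudogenes or to gene models named only by number. Gm10800 (-4.93) and Rps13-ps2 (-2.25) lay on the same side as Fasn, and Pgam1-ps2 (4.68), Gm13502 (4.32) and Pgk1-rs7 (4.13) on the other. Reads of such copies may belong to their parent genes, so these values are uncertain. Rps13-ps2 was not called without replicate 1 (-1.63) or 2 (-1.52), nor Pgam1-ps2 without replicate 2 (2.56).

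Markers of other cell types were read against the organ labels. Hepatocyte lists were higher in the liver, 5 of 6 periportal markers (Pck1 was not called) and 5 of 8 pericentral markers, of which 6 were tested and the ammonium carrier Rhbg was higher in the kidney (-1.15). Of the 6 markers of each listed cell type of the liver, 3 were tested for Kupffer cells, 4 for sinusoidal endothelium and 4 for stellate cells. All of these were called higher in the liver, led by Clec4f of Kupffer cells (7.10, with 0 to 0.112 TPM in the kidney). Genes that, like Clec4f, passed the filter through the liver alone were higher there by that choice. Over all tested genes 24.9% were called higher in the liver. Fcgr2b of the sinusoids (0.64) had the other sign with TPM as deposited (-0.13). Of 6 cholangiocyte markers, 4 were tested, 3 were called higher in the kidney and 1 lay within 1.5-fold. With TPM as deposited all 4 were called higher in the kidney, where the share over all tested genes was 27.3% on the scaled values. The 3 called on the scaled values, Krt7 (-5.06), Epcam (-4.29) and Spp1 (-3.52), are also genes of tubule epithelium. General endothelium was mixed, with Cdh5 higher in the liver on the scaled values only (0.72, and -0.01 with TPM as deposited) and 3 of 6 markers higher in the kidney, and 0 of 6 lymphocyte markers reached the level tested. Of 5 red blood cell genes, Alas2 was called (4.18) and the 4 globins were not, although 2 of them were called higher in the kidney with TPM as deposited.

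Kidney libraries carried adipose markers throughout, with a summed level of 351 to 1141 TPM against 15.1 to 34.8 TPM in the liver, and 5 of 6 were called higher in the kidney, among them Adipoq (20.3 to 66.7 TPM, a difference of -5.57). The share over all tested genes was 27.3%, and Adipoq passed the filter through the kidney alone. Adrenal cortex markers summed to 2.10 to 97.0 TPM in the kidney with a median of 3.57 TPM, and medulla markers to at most 27.7 TPM, and Star was called (-0.72) but not without the 3 kidney libraries with Cyp11a1 above 10 TPM (-0.25) or the 6 with Cyp11a1 above 1 TPM (0.04). Of 6 markers of exocrine pancreas only Cela1 was tested (-1.76), and of 6 of heart muscle only Tnnt2 (2.70), with a summed heart level of 5.19 to 52.5 TPM in the liver. The part of these transcripts in other differences was not tested.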

How the data were processed

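Directional poly(A) libraries were sequenced. The authors quantified reads with Kallisto against Ensembl mouse release 102 and deposited TPM per gene, a level corrected for transcript length. As TPM are no counts, the counting error of low values cannot be given. How deeply each single library was sequenced is not given in the sources used here. Deposited TPM summed to 996911 to 998403 per liver library and 997777 to 998713 per kidney library.

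TPM were scaled by the median of ratios, taken as log2 with a pseudocount of 0.5 and fitted with limma 3.58.1 in R 4.3.3 (intensity trend, organ as the only term, Benjamini-Hochberg adjustment over all tested genes). Permutations and figures used Python 3.11.15 with numpy 2.4.6 and matplotlib 3.10.9. The authors' DESeq2 test on estimated counts was not run on TPM. The fits were tested on simulated data.

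The members, the 31 lists and the 16 pairs were chosen with earlier results of these data known. Genes were named as the 10 largest differences in each direction at 100 TPM or more (leaving out Gm, Rik and pseudogene names), the 5 highest levels per organ, listed genes, all pairs, the 6 highest genes within 1.5-fold, the 8 lowest p by time point at 20 TPM or more, the 3 largest treatment terms per direction and the 2 genes on either side of the threshold. Some of these genes are not reported here. Gene positions are from GENCODE release M21. Alternatives covered the pseudocount, filters, scaling, weights, terms, blocks and left-out libraries, of which those for Kap above 50 TPM, Gm19220, adrenal and heart transcripts were chosen after seeing the data.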

Additional observations from a re-analysis of the deposited data

Results flagged for a closer look

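The difference between liver and kidney varied with the time point for 334 genes and with the treatment for 799 genes, each by a test of the interaction term in limma. By time point, the adjusted p-values in limma were 5.63e-11 for Elovl3, 1.28e-10 for Mreg, 2.39e-10 for Usp2, 8.12e-09 for Tymp, 5.57e-08 for Insig2, 7.03e-08 for Clpx, 1.1e-07 for Casp6 and 2.21e-07 for Crot. By treatment, the terms on the log2 scale were -4.93 for Gm10800, -2.36 for Fasn and -2.25 for Rps13-ps2, and 4.68 for Pgam1-ps2, 4.32 for Gm13502 and 4.13 for Pgk1-rs7. Groups of 24 libraries were not searched for single outlying samples.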

How the results depend on the processing

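Of 166 genes named, 134 kept their call, or stayed uncalled, under each of the 28 alternatives run, and the ratios of all 16 pairs kept their direction under the 7 run for them. With TPM as deposited, 13 genes changed direction with a call on at least 1 scale, namely Pck1 (-0.73), Fbp1 (-0.0695), Hadhb (-0.0557), Bdh1 (-0.0873), Por (-0.0125), Fgfr4 (-0.0875), mt-Atp8 (-0.19), mt-Nd1 (-0.74), Gm29216 (-0.60), Acss2 (-0.71), Casp6 (-0.62), Fcgr2b (-0.13) and Cdh5 (-0.0114). Called genes higher in liver then numbered 1232 (17.4% of calls), genes within 1.5-fold 1873, genes by time point 147 and genes after IH 7349. With sums equalised without the highest genes, 29.7% of calls favoured the liver. At 20 TPM or more, where fewer genes were tested, 2824 were called, 1388 higher in the liver, with 1984 within 1.5-fold, 195 by time point, 2659 after IH and 506 by treatment. With no filter these were 8106, 3808 and 21656, the last mostly genes near 0. Without replicate 1, 2 or 3, the genes by time point ran from 40 to 312 and those by treatment from 461 to 1479, and the share of the 10 highest genes, liver minus kidney, from -5.93 to -2.12 percentage points. That share differed by -0.87 points without the 4 kidney libraries rich in Gm19220, and by 4.66 points in the other direction without mitochondrially encoded genes. Without the 3 kidney libraries with Cyp11a1 above 10 TPM 169 genes varied by time point, and 107 without the 6 above 1 TPM, when Star turned from -0.72 to 0.0384, uncalled. The causes of these changes were not tested.

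With a replicate block of time point and number, 5138 genes were called, 3908 lay within 1.5-fold, 223 varied by time point, 4792 were called after IH and 810 by treatment. With a replicate block of the number alone 5138 were called. The 24 same-numbered pairs correlated between -0.16 and 0.389, and 1 liver library correlated best with the kidney library of its own time point and number. Only TPM was used here, so low levels cannot be given a counting error, and differences of genes below about 1 TPM in an organ depend on the pseudocount.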
